A study of Mus musculus with 8 samples.

Results

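The genes described here encode the proteins of the cytosolic ribosome, measured in mouse epididymal white fat on Affymetrix U74Av2 arrays. A gene was taken where a probe set carried its symbol alone and the symbol was Rpl or Rps followed by a digit, Rplp0 or Rpsa. Genes of the S6 kinase family and pseudogenes were left out, and the brightest probe set stood for each gene. This gave 34 genes on 47 probe sets, of 8251 genes with a probe set of their own. There were 17 genes of the large (60S) subunit and 17 of the small (40S) subunit. Of the 34, 25 exceeded the intensity floor of 171 on at least 2 arrays and were tested, 12 of the large and 13 of the small subunit.

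The study followed wild type mice and mice lacking Ppara, the gene of a nuclear receptor that drives fatty acid oxidation, through treatment with CL 316243, a selective β3-adrenergic agonist that stimulates lipolysis in fat cells. Each genotype had a control, a group at 8 hours after 30 nmol, and groups at 3 and 6 days of 3 nmol per hour. Each of these 8 groups was 1 array. The labels call the wild type control untreated, do not say what the knockout control received, and give neither the age, the strain nor whether RNA came from 1 animal or a pool. The dose scheme changes between 8 hours and 3 days, so time and dosing cannot be told apart there. The p-values below have no replicates of a group behind them. They rest on how far the genotypes disagree over the times, part of which may be technical and part a true genotype difference.

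Ribosomal proteins are made in matched amounts and assembled with ribosomal RNA in the nucleolus into a small subunit, which reads the mRNA, and a large subunit, which joins amino acids. Their mRNAs are among the most abundant of a cell. They begin with a stretch of pyrimidines, the TOP motif, through which the mTOR pathway controls how strongly they are translated, so that mRNA level and protein output can differ.

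The sequence around the annotated transcription starts was read from the RefSeq promoter table (assembly GRCm38.p6), which held 28 of the 34 genes with 37 starts and covered 250 bases before to 50 after each start. The letters CTTTCC, a pyrimidine run of the kind found in TOP mRNAs, lay on the sense strand within 50 bases either side of the start at 14 of 37 starts (37.8%), against 4.69% of all starts in the table. The windows that follow are shown because they cover the measured genes with this run, in capitals, including Rpl13a and Rpl22, the only genes past the test at 8 hours. They are read 5′ to 3′ on the strand of the gene. Counted from the annotated start, the run began at position 2 in Rps27, 5 in Rps10 and 10 in Rpl13a. It began at 22 in Rpl10a, 35 in Rpl19 and 36 in Rpl6. In Rpl22 it lay before the start, at -32, and in Rps19 at -41 from one start and 44 from another. A run away from the start need not be a TOP motif.
Rpl13a (chr7:45128719-45128748, minus strand): caagacctcctcCTTTCCcaggcggctgcc
Rpl22 (chr4:152325682-152325711, plus strand): tctgactcctccCTTTCCcgacagccgact
Rpl6 (chr5:121204521-121204550, plus strand): cgctgccttagttctCTTTCCcgtcttgca
Rpl10a (chr17:28328574-28328603, plus strand): gcgctctgccttCTTTCCggtttccgcggc
Rpl19 (chr11:98026944-98026973, plus strand): gcggcccacaagctCTTTCCtttcgctgct
Rps10 (chr17:27635223-27635252, minus strand): gcacgccccttcCTTTCCagcctccgcctc
Rps19 (chr7:24884623-24884652, plus strand): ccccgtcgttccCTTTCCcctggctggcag
Rps27 (chr3:90213630-90213659, minus strand): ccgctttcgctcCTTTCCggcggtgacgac

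The letters CCGGAAG, an ETS-type motif, were found on either strand at 12 of 37 starts (32.4%), against 8.86% of all starts. The letters AAGATGG, the core of the YY1 motif, were found on either strand at 9 of 37 starts (24.3%), against 6.34%. Both were searched in the whole 300 bases, and matches of each motif were counted whether or not they overlap another motif. The windows below show CCGGAAG, or CTTCCGG where it lies on the other strand, in the measured small subunit genes, again in capitals and on the strand of the gene.
Rps10 (chr17:27635255-27635284, minus strand): agccgcgcagcCCGGAAGagacgctgcgcc
Rps18 (chr17:33955804-33955833, minus strand): agaaggccgaaCCGGAAGttatagctccgg
Rps3a1 (chr3:86142659-86142688, minus strand): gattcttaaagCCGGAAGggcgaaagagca
Rps7 (chr12:28635949-28635978, minus strand): tttcagaagagCTTCCGGtttccacccacc
Rpsa (chr9:120127567-120127596, plus strand): cgccccagctaCTTCCGGcctggggtctgt
These matches describe letters in a window and not bound sites. Genes with CTTTCC included one that rose (Rpl13a), one that fell (Rpl22) and others that passed no test.

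The arrays had nearly coinciding distributions up to the 99th percentile, with a median of 320 intensity units on each. Up to that level, a bright gene can gain much intensity on an array only where other bright genes lose it. Above it the maxima ran from 57743 to 69288, and genes such as Rpl41 and Rplp0 lie there. Ppara, the targeted gene, lay between 395 and 1843 on the wild type arrays and between 214 and 336 on the knockout arrays. The adipocyte genes fixed as markers were above the floor on every array, among them Adipoq, between 20668 and 57089. In bulk tissue, fewer cells of a type and less RNA per cell cannot be told apart. Probe sets for ribosomal proteins may also take up RNA of processed pseudogenes and related genes, so each value belongs to its probe set.

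The summed intensity of all measured ribosomal protein genes was highest at 8 hours in both genotypes. Taken in the order control, 8 hours, 3 days, 6 days, which is kept below, the wild type sums were 437554, 573993, 522700 and 403542. In knockout fat they were 509131, 586666, 565318 and 543719. The wild type sum at 6 days was thus the lowest of all arrays, while the 3 treated knockout arrays stayed above the knockout control.

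Against the control of the same genotype, the median change over the 25 genes was 0.39 on the log2 scale (1.31-fold) at 8 hours, 0.26 at 3 days and -0.06 at 6 days in wild type fat. In knockout fat it was 0.20, 0.20 and 0.14. The median over all genes tested did not exceed 0.01 in size on any treated array. In wild type fat 21, 22 and 9 of 25 genes were above control at 8 hours, 3 days and 6 days, against 47.7%, 47.8% and 46.6% of all genes tested. In knockout fat 18, 19 and 18 of 25 were, against 46.8%, 46.1% and 46.4%. Both 8 hour arrays were above both controls for 18 of 25 genes, against 29.9% of all genes tested.

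**Figure D1:**
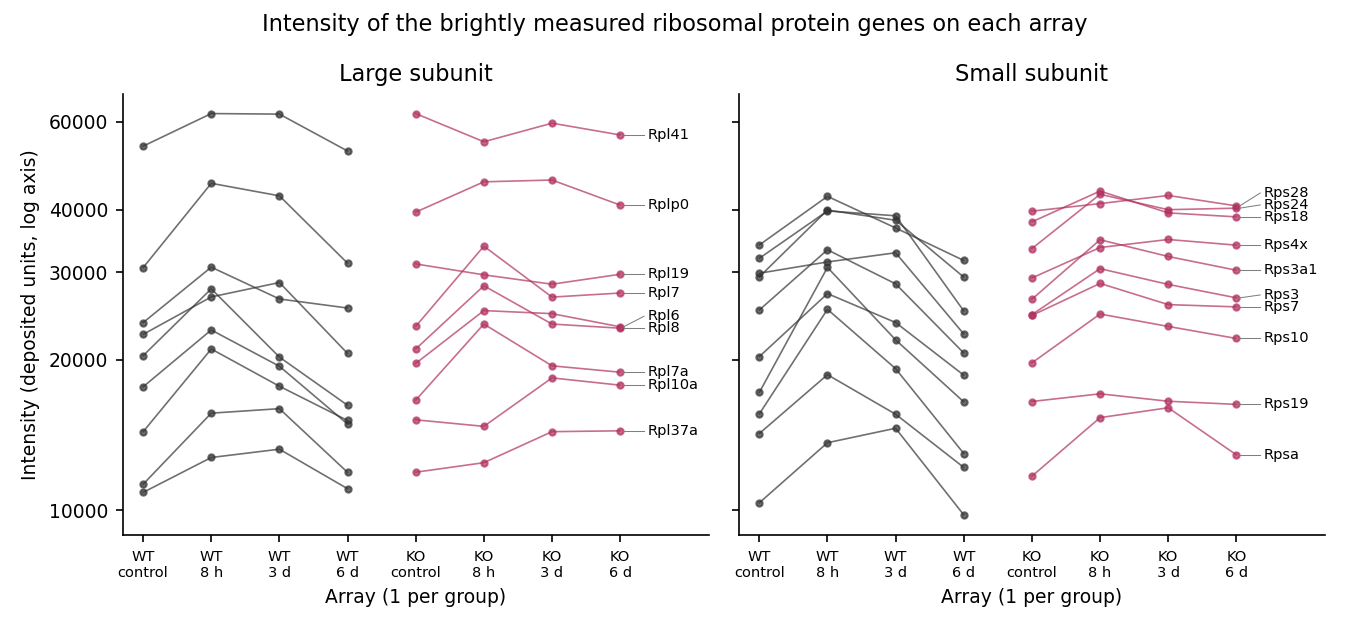
Intensity (units of the deposited values, log axis) of the 19 ribosomal protein genes with a mean of at least 10000, one line per gene, on the 4 wild type arrays (grey) and 4 knockout arrays (red); each point is 1 array. Most wild type lines peak at 8 hours or 3 days and end near or under the control, while most knockout lines stay flatter.

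Few single genes passed the test. In limma's fit of genotype plus time, 1 of 25 rose and 1 fell at 8 hours, against 6.49% and 8.29% of all 6128 genes tested, so the share was no larger than the background. At 3 days 0 of 25 passed in either direction, against 0.441% up and 0.702% down, and at an unadjusted p under 0.05 there were 2 up and 1 down, against 10.1% and 11.5%. At 6 days 0 passed, against 0.228% up and 0.604% down, with 1 up and 1 down at an unadjusted p under 0.05, against 8.08% and 10.2%. The sign of the fitted change was above 0 for 21 of 25 genes at 8 hours, 22 of 25 at 3 days and 12 of 25 at 6 days, against 48.4%, 47.8% and 49.7% of all genes. The last count became 20 when the wild type 6 day array was left out and 6 when the knockout one was. These 3 comparisons share the control arrays. The 19 genes with a mean of at least 10000 had fitted changes from 0.01 to 0.57 at 8 hours, and none of them passed. The other tested genes, Rpl13a, Rpl22, Rpl7l1, Rps13, Rps27 and Rps29, had means of 2230 or less. Both genes that passed at 8 hours and all 4 with a fitted change under 0 there were among these weaker probe sets.

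Rpl13a, a large subunit protein that also takes part in silencing inflammatory mRNAs after interferon, had the largest change of the 25 genes. Its wild type intensities were 852, 3761, 2397 and 1570. In knockout fat it was 1077, 4082, 2162 and 1960. Every treated array was above both controls, and in both genotypes the 8 hour array was highest and the 6 day array the lowest of the treated ones. The rise at 8 hours was 4.41-fold in wild type and 3.79-fold in knockout fat, a fitted log2 change of 2.03 ± 0.20 (SE; limma, adjusted p = 0.00494). At 3 days the change was 1.25 ± 0.20 (adjusted p = 0.0539) and at 6 days 0.87 ± 0.20 (adjusted p = 0.117), so neither passed.

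Rpl13a fell by 1.16 ± 0.20 on the log2 scale between 8 hours and 6 days (limma, adjusted p = 0.0268), the only 1 of 25 genes to pass there, against 4.31% up and 4.62% down of all genes. Between 8 hours and 3 days 0 of 25 passed, against 1.99% up and 2.42% down, with 1 gene each way at an unadjusted p under 0.05, against 10.8% and 12.2%. Between 3 and 6 days limma called 0 of all genes (0%). At an unadjusted p under 0.05, 0 of 25 were higher there and 1 lower, against 1.06% and 0.718%. The rise of Rpl13a at 8 hours no longer passed in limma when 1 of 3 arrays was left out, the wild type 8 hour array (adjusted p = 0.07), the knockout 8 hour array (0.0927) or the knockout control (0.06). The fall to 6 days did not pass when any 1 of the 8 arrays was left out, with adjusted p between 0.0514 and 0.174.

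Rpl22, an RNA-binding large subunit protein that is dispensable for translation in many cells, was the only one of them whose fall against control passed the test. Its wild type intensities were 775, 385, 547 and 495. In knockout fat it was 1150, 487, 514 and 536. All 6 treated arrays lay under both controls, which held for 1 of 25 ribosomal protein genes and 12.5% of all genes. The fitted change was -1.12 ± 0.22 at 8 hours (limma, adjusted p = 0.0266), and it was -0.83 ± 0.22 at 3 days (adjusted p = 0.118) and -0.87 ± 0.22 at 6 days (adjusted p = 0.133). The call at 8 hours was lost when either 8 hour array (adjusted p = 0.154), either 3 day array (0.0665) or the knockout control (0.133) was left out, and with no filter on dim probe sets (0.0803). A second, dimmer probe set of Rpl22 read 266, 330, 345 and 262 in wild type and 273, 196, 140 and 120 in knockout fat, so it did not share the drop at 8 hours in wild type fat.

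Rpl7l1, a paralogue of Rpl7, was dim. It read 346, 512, 423 and 339 in wild type fat from control to 6 days, and 173, 646, 401 and 386 in knockout fat, where the control stood next to the floor. Its fitted change at 8 hours was 1.23 ± 0.34 (limma, adjusted p = 0.0646). Its difference between genotypes in response to drug was 1.15 ± 0.28 (adjusted p = 0.434), the largest of the 25. Neither passed.

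None of the 9 bright genes of the large subunit passed at 8 hours. In wild type fat 9 of 9 lay above control there, and in knockout fat 6 of 9, with Rpl10a, Rpl19 and Rpl41 under it. Rplp0, the stalk base protein often used as a reference gene, read 30615, 45161, 42629 and 31244 in wild type and 39541, 45474, 45852 and 40847 in knockout fat. Its 8 hour and 3 day arrays lay above both controls in both genotypes, with changes of 0.38 ± 0.19 at 8 hours (limma, adjusted p = 0.23) and 0.35 at 3 days (adjusted p = 0.351). Rpl7a read 14365, 21040, 17721 and 15132 in wild type fat and 16618, 23604, 19468 and 18904 in knockout fat. Its change at 8 hours was 0.53 ± 0.17 (limma, adjusted p = 0.089), the largest of the bright large subunit genes, and it passed with no filter on dim probe sets (adjusted p = 0.0495).

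Rpl8, a conserved protein of the peptidyl transferase region, read 20398, 27770, 20269 and 16232 in wild type fat and 21038, 28160, 23601 and 23157 in knockout fat. Rpl10a read 11277, 15651, 15980 and 11913 in wild type fat and 15178, 14727, 18415 and 17806 in knockout fat. A second probe set of Rpl10a had the same wild type order, with 5055, 9379, 9520 and 6506, and read 7426, 9806, 9531 and 9443 in knockout fat. On the knockout 8 hour array the probe sets of Rpl10a differ, one lying under its control and the other above.

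Rpl41, the smallest ribosomal protein, had a narrow range, from 52413 at 6 days to 62290 at 8 hours in wild type fat and from 54699 to 62290 in knockout fat. The value 62290 stood on both the wild type 8 hour array and the knockout control. Its fitted change at 8 hours was 0.01. Rpl6, Rpl7, Rpl19 and Rpl37a completed the bright large subunit genes, and at 8 hours their wild type arrays were 1.18-fold to 1.30-fold above control. In knockout fat Rpl19 was 0.951-fold of control at 8 hours and Rpl7, whose probe set is of uncertain identity (see Rps24 below), 1.45-fold.

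Among small subunit genes, Rps3, which sits at the mRNA entry channel and also acts in DNA repair, had the largest change at 8 hours. It read 17219, 30648, 21943 and 16489 in wild type fat and 24647, 30469, 28338 and 26634 in knockout fat. The 8 hour arrays of both genotypes were nearly equal, so the larger wild type change of 0.83 against 0.31 on the log2 scale went with a lower control. The fitted change was 0.57 ± 0.22 (limma, adjusted p = 0.141).

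Rps10, a protein of the small subunit head, had a similar order. It read 15595, 25261, 19215 and 12995 in wild type fat and 19733, 24720, 23348 and 22085 in knockout fat, with a fitted change of 0.51 ± 0.23 at 8 hours (limma, adjusted p = 0.193). Rps18 and Rpsa (the laminin receptor precursor) also lay above both controls at 8 hours in both genotypes. Rps18 read 29336, 39927, 38091 and 29311 in wild type fat and 37806, 43572, 39407 and 38688 in knockout fat. Rpsa read 10353, 13657, 14600 and 9793 in wild type fat and 11703, 15333, 16046 and 12915 in knockout fat, and was highest at 3 days in both genotypes.

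At 3 days Rpsa had the largest fitted change of the small subunit, 0.48 ± 0.18 (limma, adjusted p = 0.197), which did not pass. Rps4x, the X-linked S4 protein, read 29835, 31428, 32787 and 22546 in wild type fat and 29191, 33589, 34857 and 33957 in knockout fat. Its 6 day arrays thus parted, the wild type one being the lowest of the 8 and the knockout one above its control. Rps3a1, Rps7, Rps19, Rps24 and Rps28, unlike Rps4x and Rpsa, had 8 hours the highest and 6 days the lowest of the 4 wild type arrays. The probe set of Rps24 shares its source sequence with that of Rpl7, so the identity of both is uncertain. The other Rps24 probe set was dim, at 280 or less, and the other Rpl7 probe set was under the floor on every array. A second bright probe set of Rps28 read 22015, 30731, 24401 and 18472 in wild type fat and 30135, 29123, 29823 and 28072 in knockout fat, the same wild type order as the first.

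Rps13, Rps27 and Rps29 were the small subunit genes with fitted changes under 0 at 8 hours. Rps13 read 513, 342, 614 and 733 in wild type fat and 381, 277, 380 and 362 in knockout fat. Rps27, a zinc finger protein, read 1645, 1403, 1919 and 1808 in wild type fat and 1529, 1168, 1230 and 1103 in knockout fat. Rps29, a small zinc-binding protein, read 346, 226, 267 and 358 in wild type fat and 297, 225, 211 and 209 in knockout fat. The 8 hour arrays of Rps13 and Rps27 lay under both controls, as did those of Rps29, and knockout values were under the wild type ones at each time for all of these genes. The fitted changes at 8 hours were -0.52 ± 0.23 for Rps13 (limma, adjusted p = 0.178), -0.31 ± 0.22 for Rps27 (0.389) and -0.51 ± 0.23 for Rps29 (0.194), and none passed.

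The remaining 9 genes, Rpl32, Rpl35a, Rpl38, Rpl39, Rpl39l, Rps14, Rps15, Rps20 and Rps27l, were not tested. All their arrays were at or under the floor except 1 value, 319 for the paralogue Rpl39l in the knockout control. A probe set without signal does not show how much mRNA its gene had, so neither a level nor a change is given for these genes.

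The medians of the large and small subunit lay close together. At 8 hours the median log2 change was 0.41 for the large and 0.39 for the small subunit in wild type fat, and 0.28 and 0.20 in knockout fat. Over both genotypes the medians at 8 hours were 0.34 ± 0.10 (SD, n = 2 arrays) and 0.30 ± 0.13 (SD, n = 2). Both subunits were read on the same arrays, and the gap taken within each array was 0.05 ± 0.04 at 8 hours (SD, n = 2 arrays).

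At 3 days the medians were 0.25 ± 0.05 for the large and 0.17 ± 0.09 for the small subunit (SD, n = 2), and at 6 days 0.10 ± 0.15 and -0.02 ± 0.11 (SD, n = 2). The large subunit median was above the small one on all 6 treated arrays, by 0.02 to 0.15. Taken within each array, the gap was 0.09 ± 0.04 at 3 days and 0.12 ± 0.03 at 6 days (SD, n = 2). Over the 9 large and 10 small bright genes alone, the gap ran from -0.06 to 0.20 and had no single sign. With the paralogue Rpl7l1 left out, the gap at 8 hours was -0.01 over both genotypes.

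**Figure D2:**
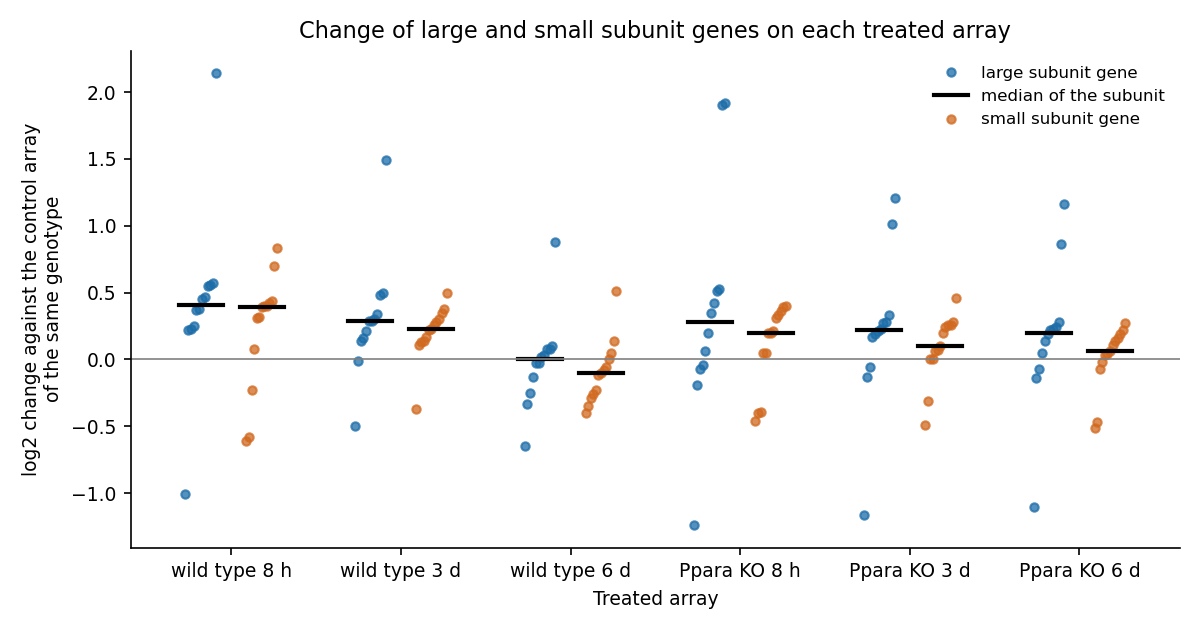
log2 change of each tested ribosomal protein gene against the control array of its genotype, for the large and small subunit on each treated array; points are genes and lines are subunit medians. Both subunits sit mostly above 0 at 8 hours and spread around 0 at 6 days in wild type fat, with medians of 0 and -0.10.

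**Figure D3:**
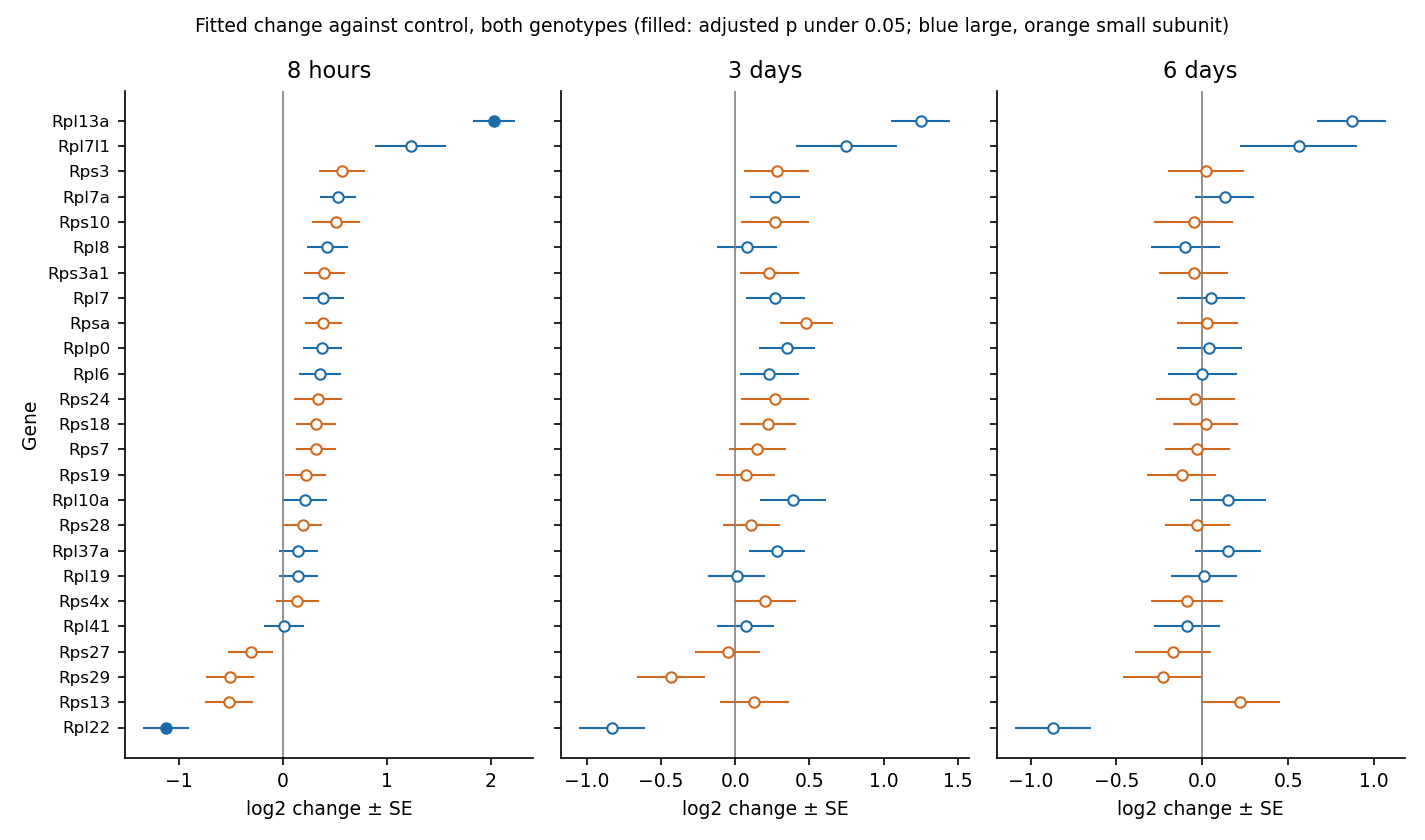
Fitted log2 change of the 25 tested genes at each treated time over both genotypes, with standard errors from the limma fit on 8 arrays. Rpl13a stands far above and Rpl22 below the other genes, whose error bars mostly reach near or across 0.

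Between genotypes no ribosomal protein gene passed. In limma's fit, 0 of 25 and 0 of all 6128 genes (0%) passed in either direction. At an unadjusted p under 0.05, 1 of 25 was up and 2 were down, against 5.29% and 10.1% of all genes. The fitted difference was above 0 for 21 of 25, against 48.5% of all genes, and for 20 to 21 when 1 array was left out. It ranged from 0.39 ± 0.16 for Rps3 (adjusted p = 0.321) and 0.34 ± 0.16 for Rps10 (0.372) down to -0.61 ± 0.16 for Rps13 (0.285) and -0.43 ± 0.16 for Rps27 (0.297). All 4 knockout arrays were above all 4 wild type arrays for 0 of 25, against 0.898% of all genes.

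The difference was uneven over time. Knockout minus wild type, the median over the 25 genes was 0.21 in the controls, 0.02 at 8 hours, 0.10 at 3 days and 0.40 at 6 days, against -0.02, 0, 0 and -0.04 over all genes. The knockout array was higher for 20 of 25 genes in the controls, 14 at 8 hours, 17 at 3 days and 22 at 6 days, against 42.4%, 45.8%, 47.5% and 43.9% of all genes. At 6 days the values ran from -1.02 for Rps13 and -0.78 for Rps29 to 0.69 for Rps3 and 0.77 for Rps10. Each of these values sets 1 array against 1 array and has no replicate check.

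**Figure D4:**
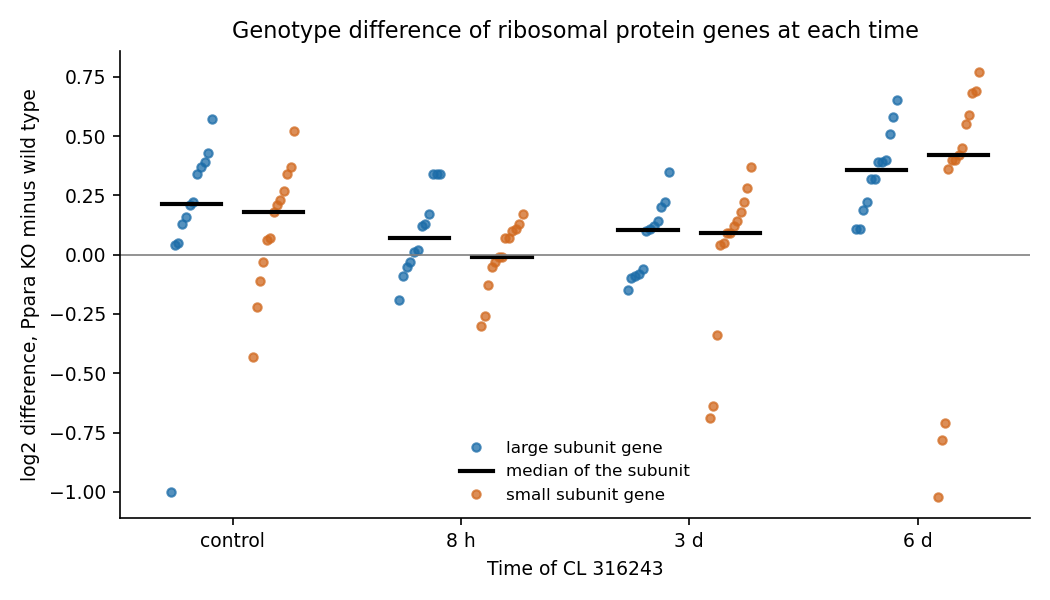
log2 difference of each tested ribosomal protein gene between knockout and wild type fat, in the controls and at each treated time, with black lines at the subunit medians; each time sets 1 array against 1. The 8 hour medians lie near 0, and the 6 day medians are the highest, with Rps13, Rps27 and Rps29 at the bottom.

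The wild type 6 day array was the lowest of the 6 treated arrays for 21 of 25 genes, against 23.2% of all genes. The wild type control and the wild type 6 day array were both under the other 6 arrays for 17 of 25, against 5.89% of all genes. From 3 to 6 days 23 of 25 genes were lower in wild type fat, by a median of -0.35, against 45.3% of all genes. In knockout fat 20 of 25 were lower, against 46.4%, but by a median of only -0.05. In the limma fit of a genotype difference in drug response, which has 2 residual degrees of freedom, 0 of 25 and 0 of all genes (0%) passed. At an unadjusted p under 0.05, 1 of 25 was above and 0 under 0, against 4.26% and 5.91%.

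Markers of other cells also differed between these arrays, but did not follow the ribosomal protein sums on every array. The summed intensity of 20 macrophage genes went from 145833 at 3 days to 53005 at 6 days in wild type fat, and from 204807 to 246137 in knockout fat. All 20 were lower on the wild type 6 day array than on the wild type 3 day array and on the knockout 6 day array. The same held for 22 of 22 cell cycle genes, summing to 32572 at 3 days and 16011 at 6 days in wild type fat, and to 43617 and 40602 in knockout fat. Macrophage genes at the floor on the wild type 6 day array were Fcer1g, Fcgr2b and Msr1. At 8 hours, where the ribosomal protein sum was highest, the macrophage sum was 101704 in wild type and 104239 in knockout fat. The cell cycle sum was 14886 and 12898 there, under the sums at 3 and 6 days. The sum over 13 adipocyte genes was 327931 at 3 days and 367959 at 6 days in wild type fat, against 240023 and 241491 in knockout fat, and in the fit all 13 were under 0 for knockout minus wild type, 0 of them passing. The adipocyte sum was high where the ribosomal protein sum was low, as on the wild type control and wild type 6 day arrays, and lowest at 8 hours, where the ribosomal protein sum was highest. The part of these cells in the ribosomal protein values was not tested.

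At 8 hours, the neutrophil sum over 8 genes was 26344 against 3025 in the wild type control and 34396 against 3019 in the knockout control. S100a9, Mmp9, Cxcr2 and Il1r2 were at the floor in both controls. S100a8 and S100a9 made most of the difference, with 12282 and 8857 at 8 hours in wild type and 17892 and 10978 in knockout fat. Elane was lower, at 274 against 423 in wild type and 204 against 376 in knockout fat. Csf3r read 1519 against 1451 and 1311 against 1461, and Camp was at the floor on both of these knockout arrays. The sum over 13 adipocyte genes was 171450 against 379293 in wild type fat and 134353 against 324713 in knockout fat. Of 5 lymphocyte genes summed, Ighm made most of the difference, with 2546 against 8095 in wild type and 1488 against 11339 in knockout fat, while Cd79a read 281 against 254 and 252 against 201. The controls also differed between genotypes: the knockout control had a Gapdh 5′ to 3′ ratio of 0.793, against 1.04 to 1.18 on the other arrays, and an epididymis gene sum over 4 genes of 118903, against 2666 in the wild type control. The Actb 5′ to 3′ ratio was 0.635 in the wild type control, 0.645 in the knockout control and 0.7 on the wild type 6 day array, against 0.755 to 0.869 on the other arrays. A pancreas gene sum over 10 genes was 81115 in the wild type control and 25738 on the knockout 8 hour array, against 4418 to 6033 elsewhere. The knockout 8 hour array also had an epididymis sum of 16432, against 1224 to 9679 on the arrays other than the knockout control. The part of these in the ribosomal protein values was not tested.

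Another 39 probe sets named a ribosomal protein gene together with other symbols, and these 34 symbols included 33 with no probe set of their own. They are not members and were not tested, but 35 of them were above the floor. Their median change in wild type fat was 0.51 at 8 hours, 0.28 at 3 days and -0.06 at 6 days, beside 0.39, 0.26 and -0.06 for the genes measured alone. In knockout fat it was 0.11, 0.01 and -0.02, under the 0.20, 0.20 and 0.14 of those genes. The knockout array was above the wild type one for 33 of 35 in the controls and for 31 of 35 at 6 days. In wild type fat 33 of 35 were lower at 6 than at 3 days.

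Many genes that build the ribosome passed the test at 8 hours. Of 59 tested ribosome assembly genes, 22 rose and 0 fell at 8 hours, against 6.49% and 8.29% of all genes, with a median log2 change of 0.78. The median was 0.61 in wild type and 1.05 in knockout fat. Nop2, a methyltransferase for ribosomal RNA, read 330, 1503, 632 and 487 in wild type fat and 394, 1927, 561 and 548 in knockout fat, a rise of 2.24 ± 0.20 (limma, adjusted p = 0.00432). Gnl3, a nucleolar GTPase, read 366, 1631, 836 and 374 in wild type and 495, 2497, 615 and 626 in knockout fat (2.25 ± 0.31, adjusted p = 0.0127). Nop58 and Nop56, core proteins of the box C/D particles that guide methylation of ribosomal RNA, rose by 1.89 ± 0.28 (0.0137) and 1.94 ± 0.38 (0.0268).

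At 3 days 0 of the 59 passed, against 0.441% up and 0.702% down of all genes, with a median of 0.15. At 6 days 0 passed, against 0.228% and 0.604%, with a median of 0.05. From 8 hours to 6 days 14 of the 59 fell and 0 rose, against 4.62% and 4.31% of all genes. The count of 22 at 8 hours became 0 when either 8 hour array or the knockout control was left out, 3 when the wild type control was, and 6 when either 3 day array was. Every fit with 1 array left out has fewer residual degrees of freedom. The count did not fall in the fits without the wild type or the knockout 6 day array. Both genotypes carried the same direction of the median at 8 hours.

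Aminoacyl-tRNA synthetases, which charge tRNAs with amino acids, included 18 tested genes, of which 7 rose and 0 fell at 8 hours, against 6.49% and 8.29% of all genes, with a median of 0.76. Farsa rose by 1.87 ± 0.38 (limma, adjusted p = 0.0298), Farsb by 1.25 ± 0.22 (0.0218) and Hars by 1.09 ± 0.24 (0.0358), and Cars by a fitted 1.64 ± 0.30 (0.024), with its wild type control, 3 day and 6 day arrays at the floor. The count became 0 when any 8 hour or 3 day array or the knockout control was left out, and 2 when the wild type control was.

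Of 35 initiation factor genes 4 rose and 1 fell at 8 hours, against 6.49% and 8.29% of all genes, with a median of 0.38. Eif4a1, the helicase of the cap complex, rose by 1.16 ± 0.19 (limma, adjusted p = 0.0167), and Eif6, which keeps the subunits apart, by 1.06 ± 0.17 (0.0156). Eif4ebp1, an inhibitor of cap binding regulated by mTOR, read 5664, 1581, 3095 and 4548 in wild type fat and 4317, 2143, 2397 and 2433 in knockout fat, and fell by 1.43 ± 0.32 (0.0373). Of 7 elongation and termination genes, 1 rose, the release factor gene Gspt1 (0.97 ± 0.18, 0.0259), and Eef2 had -0.19. Of 13 other genes with TOP mRNAs, 2 rose, Npm1 (1.29 ± 0.28, limma, adjusted p = 0.0328) and Pabpc1 (0.75, 0.0408), with a median of 0.26. The lists share genes, such as Eef2 in the TOP and elongation lists and Eif6 in the initiation and assembly lists. Their counts are therefore not separate.

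Of 13 genes that signal to the ribosome, 2 rose and 1 fell at 8 hours, against 6.49% and 8.29% of all genes. Myc, a transcription factor of growth genes, rose by a fitted 1.66 ± 0.33 (limma, adjusted p = 0.0275) with the knockout control and wild type 6 day arrays at the floor, and Ddit4, an inhibitor of mTOR complex 1, by 1.63 ± 0.28 (0.0197). Pdcd4, an inhibitor of the eIF4A helicase, fell by 1.21 ± 0.17 (0.0124).

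The mitochondrial ribosome had another time course. Of its 59 tested genes 1 rose and 1 fell at 8 hours, against 6.49% and 8.29% of all genes, Mrps2 (1.24 ± 0.24, limma, adjusted p = 0.0271) and Mrps15 (-0.79 ± 0.19, 0.043), with a median of 0. In wild type fat the median was 0.12 at 8 hours, 0.34 at 3 days and 0.60 at 6 days, while in knockout fat it was -0.11, 0.02 and 0.07. At 6 days 54 of 59 had a change above 0, against 49.7% of all genes. That count became 41 when the wild type 6 day array or the wild type control was left out. It became 58 without the knockout 6 day array and 59 without the knockout control. None of the 59 passed at 6 days, against 0.228% up and 0.604% down of all genes. Mrps2 read 413, 1003, 1083 and 1747 in wild type and 367, 847, 868 and 905 in knockout fat. Its change at 6 days was 1.69 ± 0.24 (limma, adjusted p = 0.0508). In wild type fat the mitochondrial set was thus highest at 6 days, the point where the cytosolic genes were lowest among the treated arrays.

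**Figure D5:**
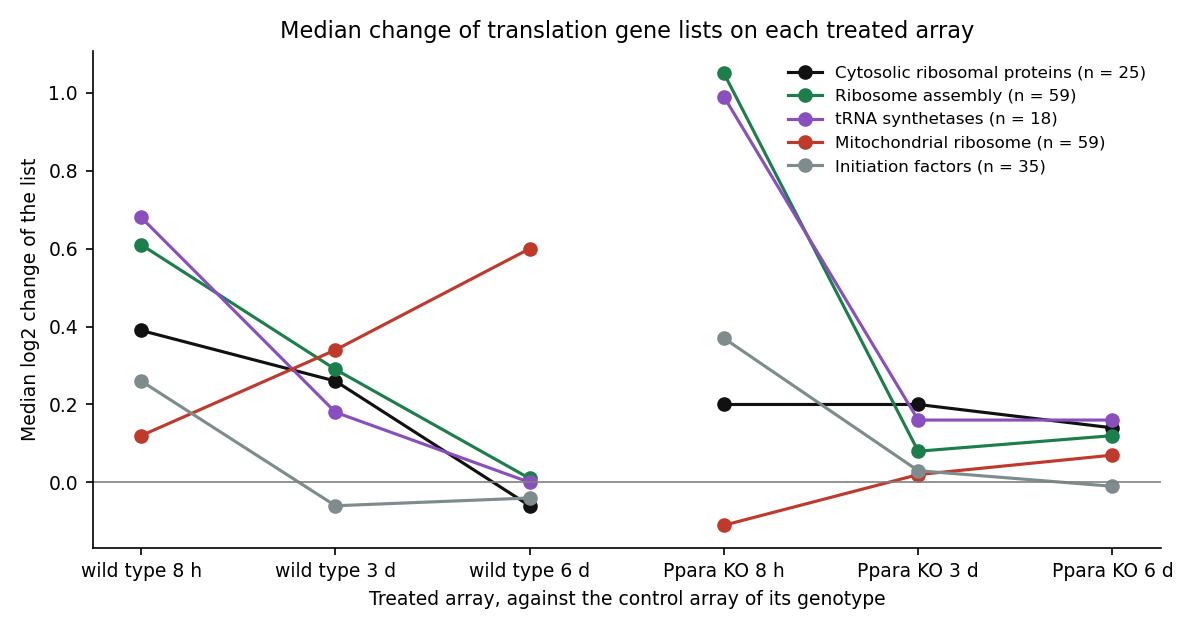
Median log2 change of the cytosolic ribosomal proteins and of other translation gene lists on each treated array, against the control array of its genotype; points are list medians, 1 array each. Ribosome assembly and tRNA synthetase genes peak at 8 hours in both genotypes, while mitochondrial ribosome genes climb to 0.60 in wild type fat at 6 days.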

How the data were processed

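The deposited values were linear intensities in whole numbers, 11.9% of them under 0, and how the authors corrected background, normalized and summarised probes was not given in the sources used here. Values were kept as deposited, raised to a floor of 171 (the 40th percentile) and put on the log2 scale. Of 12488 probe sets, 66 were controls, 10855 had 1 symbol, 396 had several and 1237 were not listed; 10839 were named through gene numbers in RefSeq (GRCm38.p6). A probe set needed 2 of 8 arrays above the floor, which left 7346 and, by the brightest, 6128 genes. Columns left unused were 0. limma 3.58.1 in R 4.3.3 fitted genotype plus time (3 residual degrees of freedom) and, separately, genotype by drug (2), with Benjamini-Hochberg adjustment over all 6128 genes and a threshold of 0.05. The script was tested on simulated data. The number of arrays limits precision.

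The members and gene lists were chosen with earlier results of these data known, and the group of 19 bright genes (mean of at least 10000) after their values were seen. Genes were named by rule: chosen reference members (of which Rplp1, Rplp2, Rps6, Rps27a, Rpl5, Rpl10 and Rpl11 had no probe set of their own), paralogues, genes past the threshold, the 4 largest changes each way per subunit and time and between genotypes, and up to 4 passing genes each way of each list. Other members were described to complete the set. A list of ubiquitin fusion and associated genes had 0 tested.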

Additional observations from a re-analysis of the deposited data

Results flagged for a closer look

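Treated arrays all moved one way in wild type and all the other way in knockout fat for 1 of 25 genes (4%), Rpl19. Over all 6128 genes the share, with both directions counted, was 8.26%. In Rpl19, a large subunit protein gene, the 3 wild type treated arrays lay above their control and the 3 knockout treated arrays under theirs. Its changes were 0.37, 0.16 and 0.10 in wild type fat and -0.07, -0.13 and -0.07 in knockout fat, on the log2 scale. The mean change over the treated arrays differed by -0.3, knockout minus wild type. In the limma interaction fit the difference was -0.30 ± 0.25 (adjusted p = 0.703) and did not pass. The knockout control, at 31142, was the brightest of the 8 arrays for this gene. A second, dimmer probe set of Rpl19 read 289, 440, 473 and 278 in wild type and 507, 364, 313 and 440 in knockout fat. Its wild type 6 day array lay under its control, so that probe set did not share the whole pattern.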

How the results depend on the processing

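No paired analysis was possible because the labels carry no replicate numbers and each group is 1 array. Across the settings tried, the sign counts at 8 hours, at 3 days and between genotypes and the small subunit medians moved by less than the spread or 1.5 times. With no filter on dim probe sets, the large subunit median was 0.12 at 8 hours and 0.16 at 3 days, the subunit gap was -0.06, 0.04 and 0.04 at 8 hours, 3 days and 6 days, the count above 0 at 6 days was 20 of 34, 1 gene passed for the interaction, 0 passed from 8 hours to 6 days, and at 8 hours Rpl7a passed in place of Rpl22. That last count was also 0 with the floor at the 25th percentile and without both controls. The gap at 8 hours was 0.15 with the mean of all probe sets, 0.12 with quantile normalization and -0.01 without paralogues. At 3 days it was 0.03 with the floor at the 55th percentile and 0.14 with plain probe sets, and at 6 days 0.16 with quantile normalization. At 3 days 1 gene passed with the floor at the 55th percentile and in the fit with an intensity trend and a robust prior, and at 8 hours 1 passed with the mean of probe sets. Leaving out each array in turn gave 0 to 3 genes at 8 hours, 0 to 1 at 3 days, 0 to 0 from 8 hours to 6 days, and 6 to 20 above 0 at 6 days. Ribosome assembly genes rising at 8 hours were 14 with the floor at the 25th percentile and 5 with no filter, and tRNA synthetase genes 2 with no filter. Where the construction does not show the cause, it was not tested. The arrays' number, 1 per group, limits each comparison of single arrays.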
